A study of Mus musculus with 18 samples.

Results

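Collagen genes outside type IV were followed through chemical reprogramming of mouse fibroblasts. The members were the protein-coding mouse genes whose symbols name a collagen chain, with type IV, the basement membrane collagen, left out. They numbered 38 of the 55401 genes in the files. RNA was sequenced in 18 libraries of 9 groups, 2 libraries each. The course began with mouse embryonic fibroblasts (MEF, here D0), taken at passages 1 to 3 from E13.5 embryos of a strain given as 129XOG2; OG2 mice carry a green fluorescent reporter of the pluripotency gene Pou5f1. Cells of the same strain were taken every 2 days in reprogramming medium, on days 2, 4, 6, 8, 10 and 12 (D2 to D12); the compounds in that medium are not given in the sources used here. The riPSC group held induced pluripotent cells of the same strain, and the mESC group was the embryonic stem cell line R1, which is 1 line of another strain. Both stem cell groups grew on feeder cells, which are themselves usually fibroblasts, in medium with mLIF, the GSK3 inhibitor CHIR99021 and the MEK inhibitor PD0325901. Nothing in the labels says how many riPSC clones were used or whether the 2 libraries of a group came from separate cultures, so p-values reflect only how far these libraries differ within a group, which may be technical.

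Collagens are matrix proteins of 3 chains wound into a triple helix, and each chain must carry glycine at every 3rd residue for the helix to close. Fibrillar collagens (types I, II, III, V, XI, XXIV and XXVII) have 1 long helix, unbroken in most of these types, and pack into fibrils. Type VI forms beaded filaments around cells, and the FACIT group (IX, XII, XIV, XVI, XIX, XX and XXII) sits on fibril surfaces. Transmembrane collagens (XIII, XVII, XXIII and XXV) are anchored in the cell membrane, multiplexins (XV and XVIII) lie at basement membranes, and type VII forms the anchoring fibrils below epithelia. In connective tissue fibroblasts are the main source of types I, III, V and VI.

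The repeat that defines the family is visible in the coding sequence. The stretches of 63 bases below open the longest unbroken run of triplets started by glycine in 5 genes of 4 kinds. They are joined across introns where needed, with the glycine codon (GGN) that opens each triplet of codons in capitals. They are from the mouse build GRCm38 (mm10), the strand is that of the gene, and positions are those of the first and last base.
Col1a1, fibrillar, chr11:94939451-94939912, plus strand, 3 exons: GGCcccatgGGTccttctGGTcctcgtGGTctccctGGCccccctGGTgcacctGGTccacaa
Col3a1, fibrillar, chr1:45323762-45325386, plus strand, 2 exons: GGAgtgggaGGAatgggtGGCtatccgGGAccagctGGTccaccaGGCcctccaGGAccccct
Col6a1, type VI, chr10:76719650-76720996, minus strand, 2 exons: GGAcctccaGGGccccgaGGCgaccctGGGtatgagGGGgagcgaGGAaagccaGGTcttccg
Col12a1, FACIT, chr9:79612916-79613769, minus strand, 2 exons: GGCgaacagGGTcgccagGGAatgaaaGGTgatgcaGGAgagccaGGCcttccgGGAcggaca
Col18a1, multiplexin, chr10:77077684-77077746, minus strand, 1 exon: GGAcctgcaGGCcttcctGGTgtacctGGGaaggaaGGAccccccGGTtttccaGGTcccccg

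That a glycine codon opens every triplet in the 5 stretches follows from how they were chosen. What differs between the types is how long this goes on. The longest unbroken run of triplets opened by glycine had 216 to 344 triplets in the 11 fibrillar genes, 37 to 87 in the 6 type VI genes, 32 to 113 in the 9 FACIT genes, 40 to 56 in the 4 transmembrane genes and 30 in both multiplexins. Among the fibrillar genes the shortest runs were those of Col24a1, at 216, and Col27a1, at 217. Col26a1, which is grouped with none of these types, had the shortest of all, at 23 triplets. The run was read from the annotated transcript with the longest coding sequence.

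The promoters of 4 genes that the results turn on are shown because these genes were among the most abundant. Col1a2 and Col3a1 differed in course from each other and from Col6a1 and Col18a1, which were both high from D2 to D6. Each is the 150 bases before the start of the gene in RefSeq's table for GRCm38.p6, read on the gene's strand, with motif matches in capitals. The gene spans given below are from GENCODE, which places some starts elsewhere. The Col1a2 stretch lies inside that gene's span, and those of Col6a1 and Col18a1 overlap theirs.
Col1a2, chr6:4505468-4505617, plus strand: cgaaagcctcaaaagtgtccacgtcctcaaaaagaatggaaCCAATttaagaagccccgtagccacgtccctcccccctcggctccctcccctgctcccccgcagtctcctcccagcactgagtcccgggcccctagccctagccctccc
Col3a1, chr1:45311388-45311537, plus strand: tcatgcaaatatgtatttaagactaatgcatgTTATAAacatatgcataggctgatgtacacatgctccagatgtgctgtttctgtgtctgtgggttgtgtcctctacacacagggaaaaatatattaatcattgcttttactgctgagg
Col6a1, chr10:76726045-76726194, minus strand: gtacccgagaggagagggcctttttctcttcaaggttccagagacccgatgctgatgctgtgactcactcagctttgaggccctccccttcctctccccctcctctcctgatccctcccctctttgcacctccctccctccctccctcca
Col18a1, chr10:77166531-77166680, minus strand: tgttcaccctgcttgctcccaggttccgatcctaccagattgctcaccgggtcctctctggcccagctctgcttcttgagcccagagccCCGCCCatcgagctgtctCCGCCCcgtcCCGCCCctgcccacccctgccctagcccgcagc

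The motifs searched on both strands were the CCAAT motif, the core TATAA of another promoter motif and the GC box GGGCGG, which reads CCGCCC on the other strand. The Col1a2 promoter held the CCAAT motif 1 time. The Col3a1 promoter held TATAA on both strands, at overlapping positions. The Col18a1 promoter shown held 3 copies of CCGCCC; the other of the 2 listed for that gene, and the Col6a1 promoter, held none of the 3 motifs. Of 33 promoters listed for 30 of the collagen genes, 6 held CCAAT (18.2%), 4 held TATAA (12.12%) and 16 held GGGCGG (48.5%). Of 32851 promoters of the same length in the table, 24.5%, 14.2% and 28.6% held the 3 motifs in that order. These are matches of letters and say nothing of what binds.

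The libraries were not equally even. Values are FPKM, fragments per kilobase of exon scaled to the fragments of the library, so levels may be compared between genes. Total reads are not in the files. In most libraries the steps between low values fitted several depths almost equally well, so the depth is left unknown. D2 replicate 2 was unlike the rest, with 93 values at its best step and 59 at the next best. Replicates of D2 differed by a median of 0.49 over the tested collagen genes on the log2(FPKM + 1) scale, those of D0 by 0.31 and of D4 by 0.24, and those of the other 6 groups by 0.07 to 0.12. Over all 16439 genes tested, the median was 0.24 in D2, 0.28 in D0 and 0.18 in D4, and 0.09 to 0.14 elsewhere. Mitochondrial genes held 34.1 and 15.9% of the summed FPKM at D2, 62.3 and 62.1% at D12 and 28.1 and 27.0% in riPSC, against 0.437 and 1.89% at D0; the part of this share in the collagen values was not tested. For the collagens the D2 libraries differed most: Col6a1 was at 377 and 141 FPKM in D2. In some low genes the D2 libraries stood in the same ratio, as in Colgalt2 (0.0494942 and 0.00989883), Cnmd (0.0213617 and 0.00427233) and Esrrb (0.0189842 and 0.00379683). The D2 libraries may thus not be independent, which was not tested. If so, their SDs, and the spread behind p-values that use them, may be too small. Of the 9 fibroblast markers examined, 8 reached an FPKM of 1 in both D0 libraries; decorin (Dcn), a small proteoglycan, was at 0 and 5.08. A shortfall of cells of a type and less RNA per cell cannot be told apart in such samples.

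Of the 38 genes, 30 reached an FPKM of 1 in at least 2 libraries and were tested, and 8 did not. These 8 were Col6a4 and Col6a6, Col9a1, Col19a1 and Col22a1 of the FACIT group, transmembrane Col17a1, Col10a1, which hypertrophic cartilage is known for, and Col28a1. Their highest value in any library was that of Col22a1 in D0, where the libraries read 1.9 and 0.0294 FPKM. Some tested genes reached 1 FPKM in few groups, so calls between those groups and others are partly set by this filter. Col25a1 did so only at D6, Col6a5 at D10 and D12, and Col2a1 in D0 and riPSC. Col24a1 did so only in D2 replicate 1, D4 and D6, and Col8a2 only in D0, D2 replicate 1 and D4. Col9a2 did so only in D0, riPSC and mESC. A gene is said to have risen or fallen, or to be called, where limma, with 1 mean per group over all 18 libraries, gave a p of less than 0.05 after Benjamini-Hochberg adjustment over all tested genes and the difference was at least 2-fold on the log2(FPKM + 1) scale. That scale understates the change of genes with low values. Fold changes are followed by their standard errors.

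**Figure D1:**
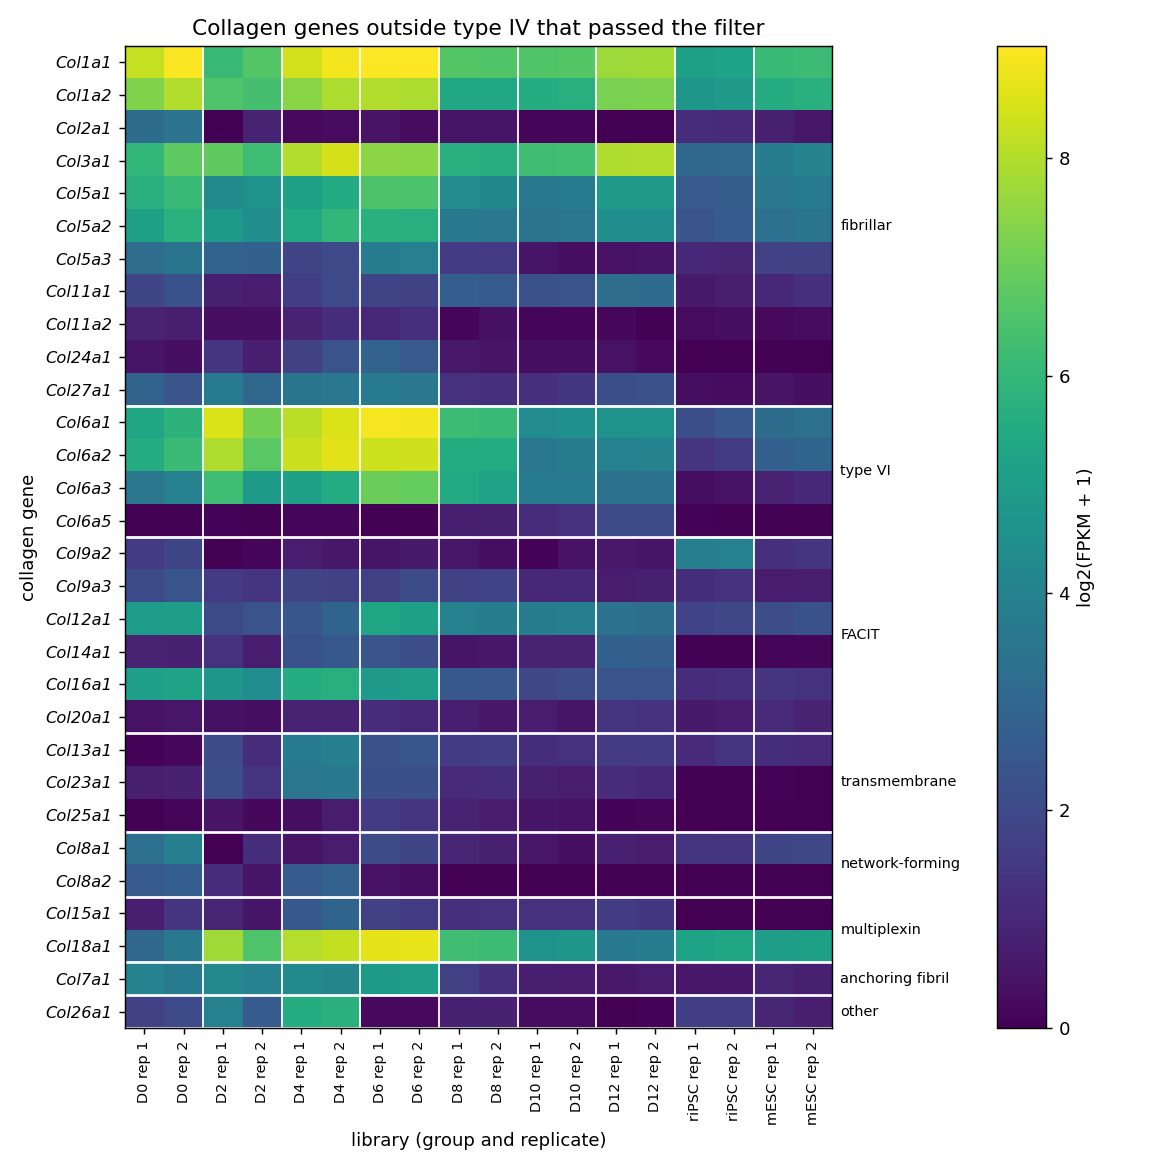
Levels of the 30 tested collagen genes (rows, grouped by type) in each of the 18 libraries (columns), as log2(FPKM + 1) from dark (0) to yellow. The brightest cells are fibrillar Col1a1, Col1a2 and Col3a1, the type VI genes Col6a1 and Col6a2, and Col18a1, and the columns of D8 are darker than those of D6.

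Collagen RNA was most abundant at D6 and least in the stem cells. The summed FPKM of the 38 genes was 843 and 1285 at D0, 1329 and 733 at D2, 1909 and 2465 at D4, 2579 and 2563 at D6, 499.9 and 473 at D8, 337 and 358 at D10, 755 and 776 at D12, 148 and 159.8 in riPSC and 215 and 234 in mESC. By mean, 13 of the 30 tested genes were highest at D6, 9 at D4, 4 at D12, 3 at D0 and 1 in riPSC, and none at D2, D8, D10 or in mESC. Among the 13, Col25a1 was tested only through its 2 D6 libraries. Type IV collagen, left out of the set, was summed for comparison and was at 199 and 181 FPKM at D6, 944 and 881 at D8, 1189 and 1280.3 at D10, 1517 and 1576 at D12 and 10.3 and 11.0 in riPSC. From D8 to D12 it exceeded the sum of the other collagens in each library.

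The make-up of the collagen RNA shifted as well as its amount. Fibrillar genes held 75.4 and 79.1% of the sum at D0, 25.7 and 42.8% at D2, 43.5 and 43.2% at D6, 72.7 and 71.7% at D10 and 87.9 and 87.9% at D12. Type VI genes held 11.5 and 11.0% at D0, 52.6 and 37.5% at D2, 36.1 and 35.9% at D6 and 6.67 and 6.77% at D12. The fibrillar share was therefore lower, and the type VI share higher, from D2 to D8 than at either end of the course, beyond the gap between replicates. Multiplexins, mostly Col18a1, held 0.931 and 1.014% at D0, 15.9 and 16.2% at D6 and 24.8 and 24.5% in riPSC. The FACIT genes held 8.43 and 5.95% at D0, 2.93 and 2.89% at D6 and 13.5 and 13.5% in riPSC.

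**Figure D2:**
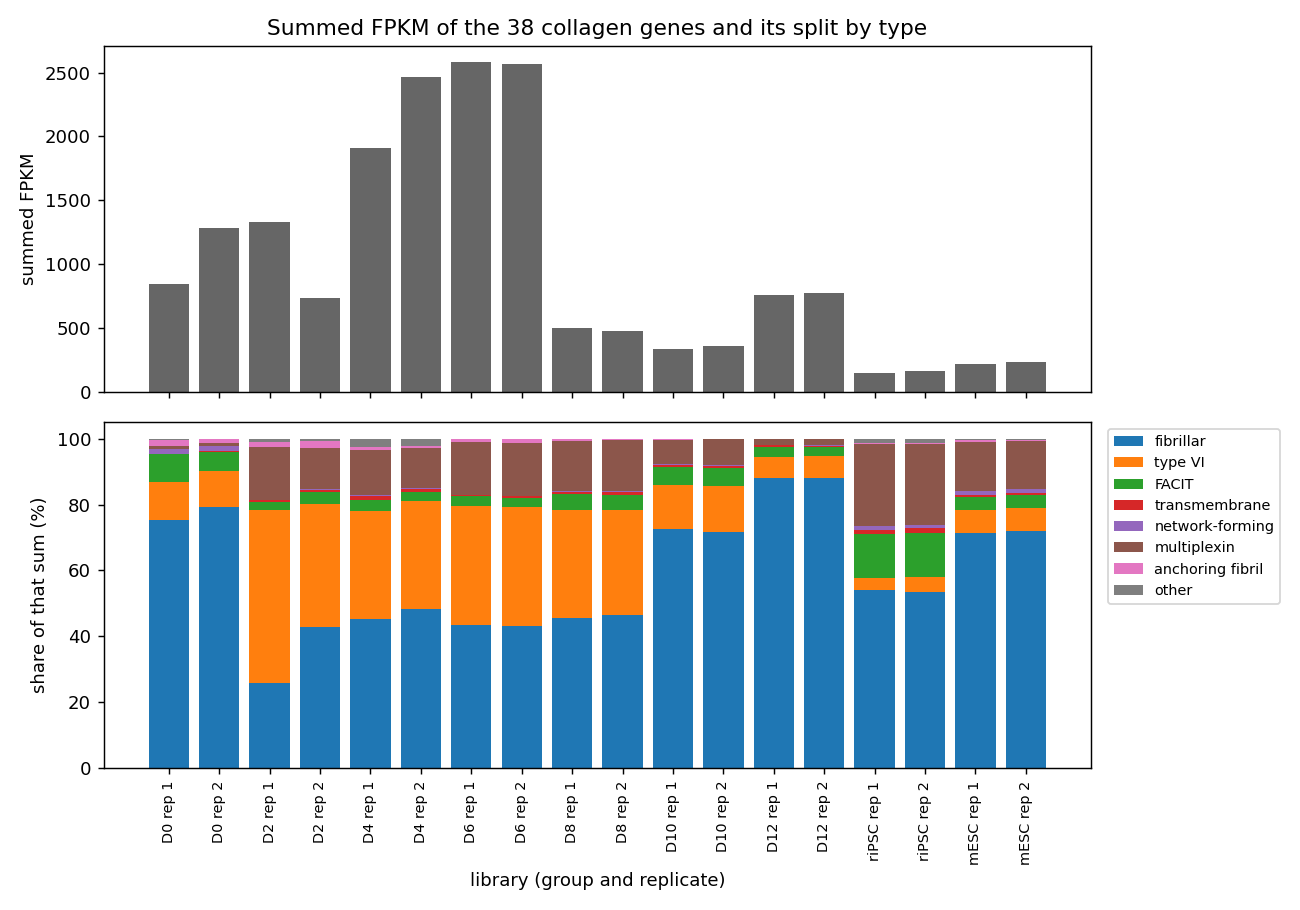
Summed FPKM of the 38 collagen genes in each library (upper bars) and the percent of that sum from each collagen type (lower bars). The 2 D6 libraries have the tallest bars, the type VI share is widest in D2 replicate 1, and the fibrillar share is widest at D12.

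Among the fibrillar genes, type I was the most abundant in most groups. Col1a1, the alpha 1 chain of type I, at chr11:94936224-94953042, read 303 and 502 FPKM at D0, 68.6 and 98.2 at D2, 342 and 464 at D4, 514 and 523 at D6, 97.1 and 93.6 at D8, 94.8 and 99.6 at D10, 207 and 215 at D12, 33.8 and 36.5 in riPSC, and 68.3 and 72.9 in mESC. Col1a2, its partner chain, at chr6:4504814-4541544, read 158 and 255 FPKM at D0, 91.9 and 81.2 at D2, 172 and 241 at D4, 255 and 243 at D6, 40.4 and 40.3 at D8, 47.6 and 49.95 at D10, 148 and 152 at D12, 26.6 and 27.8 in riPSC, and 47.3 and 51.9 in mESC. By mean both were highest at D6, and their values at D8 and D10 lay below those of each earlier group apart from Col1a1 at D2, whose range overlapped them. The ratio of Col1a1 to Col1a2 was 1.92 and 1.97 at D0, 0.746 and 1.21 at D2, 2.02 and 2.15 at D6, 1.4 and 1.41 at D12 and 1.27 and 1.31 in riPSC. It was lower at D2 and D12 than at D0.

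Type III took a course of its own. Col3a1, the chain of type III collagen, which is abundant in elastic and embryonic tissue, lies at chr1:45311538-45349706 and read 62.8 and 109.8 FPKM at D0, 112 and 73.5 at D2, 255 and 352 at D4, 175 and 171 at D6, 49.7 and 48.4 at D8, 75.0 and 77.6 at D10, 248 and 255 at D12, 7.14 and 7.6 in riPSC, and 13.2 and 15.5 in mESC. Its highest groups were D4 and D12, and the D12 values lay near the lower of the D4 libraries. Per unit of Col1a1, Col3a1 stood at 0.207 and 0.219 at D0, 0.341 and 0.327 at D6, 0.791 and 0.779 at D10, 1.2 and 1.19 at D12 and 0.212 and 0.208 in riPSC. At D12 Col3a1 thus exceeded Col1a1 in both libraries, as it did in D2 replicate 1.

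Type V chains nucleate fibrils of type I. Col5a1 read 51.3 and 68.2 FPKM at D0, 18.9 and 23.9 at D2, 34.0 and 45.3 at D4, 91.2 and 88.4 at D6, 19.4 and 16.9 at D8, 11.7 and 12.7 at D10, 27.5 and 27.6 at D12, 4.69 and 5.32 in riPSC, and 11.0 and 12.7 in mESC. Col5a2 read 34.3 and 53.1 FPKM at D0, 29.5 and 21.04 at D2, 43.7 and 61.6 at D4, 51.9 and 49.5 at D6, 11.7 and 11.3 at D8, 10.16 and 10.6 at D10, 20.6 and 20.6 at D12, 4.23 and 4.97 in riPSC, and 8.9 and 10.4 in mESC. Col5a3, the least abundant of the 3 chains, read 8.3 and 10.5 FPKM at D0, 6.36 and 5.93 at D2, 2.64 and 2.98 at D4, 12.9 and 14.4 at D6, 1.97 and 1.89 at D8, 0.434 and 0.258 at D10, 0.364 and 0.432 at D12, 1.08 and 0.973 in riPSC, and 2.33 and 2.43 in mESC. Col5a1 and Col5a3 were highest at D6, while Col5a2 did not separate D4 from D6. At D12 both libraries lay above those of D10 for Col5a1 and Col5a2, and overlapped them for Col5a3. Col5a2 lies 24614 bases from Col3a1 on chromosome 1, and these neighbours were unlike at D12, where Col3a1 was above both D0 libraries and Col5a2 was below them.

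The remaining fibrillar genes were low. Col27a1, a cartilage-associated fibrillar chain, read 6.29 and 4.17 FPKM at D0, 12.3 and 7.14 at D2, 10.3 and 11.3 at D4, 12.13 and 11.2 at D6, 1.47 and 1.4 at D8, 1.41 and 1.75 at D10, 3.49 and 3.72 at D12, 0.271 and 0.231 in riPSC, and 0.402 and 0.294 in mESC. Col11a1, which helps set fibril width in cartilage, was highest at D12, at 8.39 and 7.97 FPKM, against 3.75 and 4.04 at D10 and 0.589 and 0.679 in riPSC. Col2a1, the main cartilage collagen, was at 8.17 and 9.91 in D0 and at most 1.21 in any other library; it was listed at 0 in both D12 libraries. Col24a1 peaked at 6.28 and 4.79 at D6, and Col11a2 had at most 1.34 in any library. The 7 chondrocyte markers summed to 2.12 and 2.13 FPKM at D0, 11.8 and 12.21 at D8, 6.79 and 7.83 at D10 and 1.45 and 1.52 at D12. Most of the D8 sum was Sox9, a transcription factor of cartilage and other tissues, at 10.7 and 11.3, and Cnmd, Matn1 and Snorc were at 0 in both libraries of D0 and of D12.

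The type VI genes had their high phase from D2 to D6. Col6a1, Col6a2 and Col6a3 encode the 3 chains that assemble together in the common form of type VI collagen. Col6a1, at chr10:76708792-76726168, read 38.6 and 56.1 FPKM at D0, 377 and 141 at D2, 274 and 372 at D4, 475 and 473 at D6, 71.8 and 68.7 at D8, 19.5 and 22.3 at D10, 23.1 and 24.0 at D12, 3.47 and 4.54 in riPSC, and 8.2 and 9.06 in mESC. Col6a2, 85161 bases away at chr10:76595762-76623630 and on the same strand, read 46.9 and 70.0 FPKM at D0, 248 and 105 at D2, 319 and 395 at D4, 327 and 331 at D6, 47.0 and 45.7 at D8, 11.4 and 13.0 at D10, 14.7 and 15.5 at D12, 1.65 and 2.03 in riPSC, and 5.75 and 6.57 in mESC. Col6a3, at chr1:90765923-90843971 on another chromosome, read 11.1 and 14.8 FPKM at D0, 73.4 and 29.0 at D2, 34.9 and 45.5 at D4, 127 and 117 at D6, 43.8 and 35.9 at D8, 12.12 and 12.6 at D10, 9.24 and 9.68 at D12, 0.251 and 0.347 in riPSC, and 0.839 and 1.03 in mESC. In all 3 genes both libraries of D2, D4 and D6 were above both D0 libraries, and Col6a1 and Col6a3 still were at D8. Col6a5, an alternative chain, was unlike them: it had at most 0.119 FPKM in any library to D6 and stood at 0.697 and 0.746 at D8, 1.23 and 1.48 at D10 and 3.2 and 3.31 at D12.

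Col18a1, the source of the fragment endostatin, was high over the same days as type VI. It lies at chr10:77052178-77166548 and read 7.18 and 11.4 FPKM at D0, 213 and 92.3 at D2, 258 and 292 at D4, 407 and 413 at D6, 75.0 and 71.8 at D8, 23.9 and 26.5 at D10, 11.5 and 13.1 at D12, 36.7 and 39.1 in riPSC, and 32.2 and 34.2 in mESC. Unlike type VI it remained among the most abundant collagens in the stem cells, where its values lay above both D0 libraries. The other multiplexin, Col15a1, peaked at 4.59 and 6.54 FPKM at D4 and was at 0 and 0.0198 in riPSC. Col7a1, the anchoring fibril collagen, read 15.1 and 12.6 FPKM at D0, 18.1 and 15.1 at D2, 19.1 and 16.4 at D4, 29.0 and 31.2 at D6, 2.26 and 1.38 at D8, 0.708 and 0.658 at D10, 0.552 and 0.654 at D12, 0.452 and 0.488 in riPSC, and 0.899 and 0.715 in mESC. Its values from D8 on were below all values of the 4 earlier groups.

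**Figure D3:**
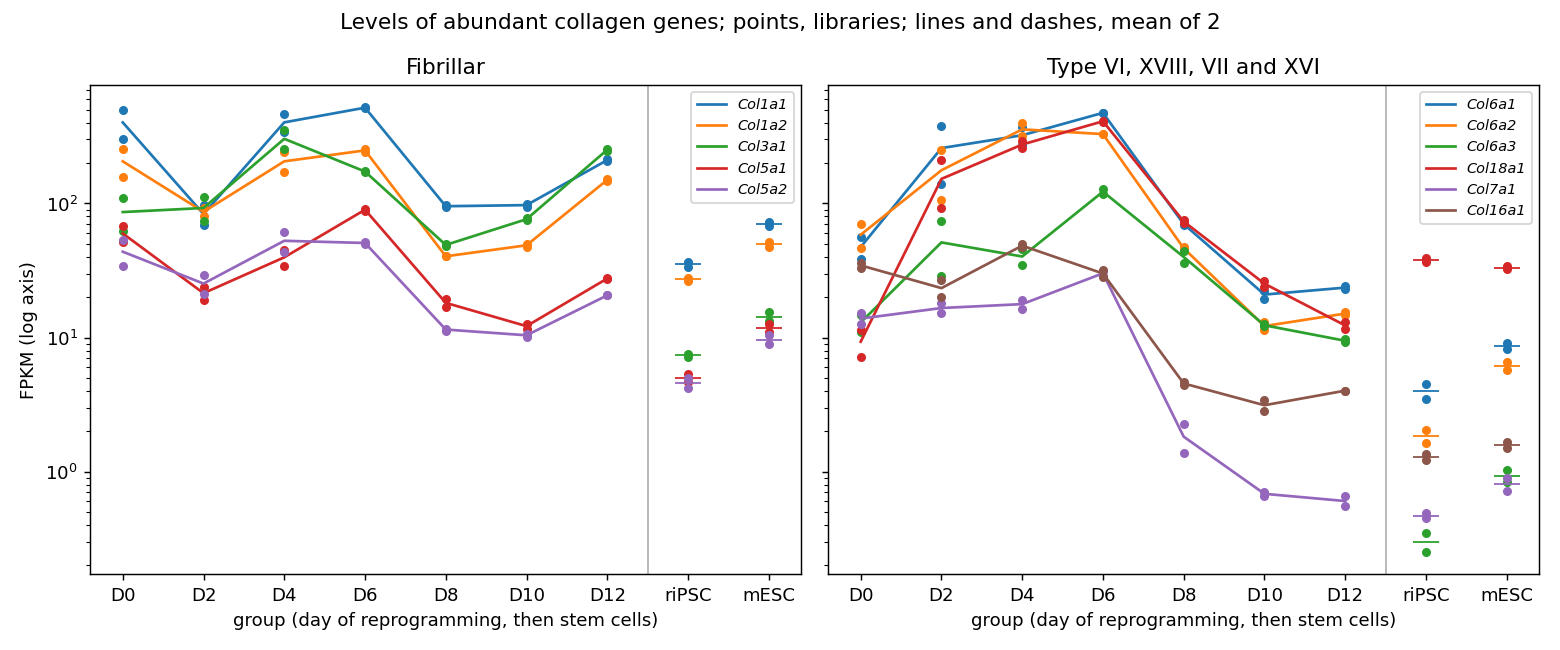
FPKM (log axis) of 5 fibrillar genes (left) and of type VI genes, Col18a1, Col7a1 and Col16a1 (right) by group; points are libraries, lines and dashes are means of 2. Col6a1 and Col18a1 are high from D2 to D6, lower at D8 and lower again at D10, while Col3a1 is high at D4 and again at D12.

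Of the FACIT genes, 3 reached 10 FPKM in both libraries of a group. Col12a1, which binds type I fibrils in tendon and other loaded tissue, read 29.7 and 32.0 FPKM at D0, 3.08 and 3.99 at D2, 4.4 and 6.55 at D4, 38.7 and 33.8 at D6, 14.8 and 13.3 at D8, 12.9 and 13.9 at D10, 9.27 and 8.62 at D12, 2.53 and 2.75 in riPSC, and 3.34 and 3.9 in mESC. It was low at D2 and D4, and both D6 libraries lay above those of D0. Col16a1 read 33.0 and 36.1 FPKM at D0, 26.7 and 20.1 at D2, 46.9 and 49.96 at D4, 28.4 and 31.7 at D6, 4.66 and 4.43 at D8, 2.81 and 3.44 at D10, 4.02 and 4.02 at D12, 1.23 and 1.36 in riPSC, and 1.67 and 1.49 in mESC. It was highest at D4 and low from D8 on. Col9a2, a chain of the cartilage collagen IX, read 1.96 and 2.69 FPKM at D0, 0.0207 and 0.0859 at D2, 0.642 and 0.495 at D4, 0.43 and 0.559 at D6, 0.472 and 0.261 at D8, 0.0557 and 0.356 at D10, 0.547 and 0.436 at D12, 14.01 and 14.8 in riPSC, and 1.37 and 1.64 in mESC. Its riPSC libraries lay far above all others, whereas its partner Col9a3 stood at 1.24 and 1.51 in riPSC and 3.07 and 4.11 in D0, and Col9a1 was listed at 0 in both riPSC libraries. Col14a1 had 2 phases, at 3.81 and 4.66 FPKM at D4, 0.421 and 0.507 at D8 and 5.94 and 5.58 at D12, and Col20a1 had at most 1.55 in any library.

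Transmembrane Col13a1 and Col23a1, and Col26a1, had their high point at D4. Col13a1, found at cell adhesions and the neuromuscular junction, read 0.0698 and 0.14 FPKM at D0, 3.28 and 1.19 at D2, 12.5 and 13.9 at D4, 3.72 and 4.35 at D6, 1.94 and 2.22 at D8, 1.25 and 1.42 at D10, 1.91 and 2.06 at D12, 1.17 and 1.65 in riPSC, and 1.26 and 1.14 in mESC. Col23a1 read 0.702 and 0.795 FPKM at D0, 3.45 and 1.64 at D2, 10.7 and 11.4 at D4, 3.6 and 3.67 at D6, 1.14 and 1.27 at D8, 0.722 and 0.604 at D10, 1.21 and 0.996 at D12, 0.0376 and 0 in riPSC, and 0.058 and 0 in mESC. Col25a1, first known from amyloid plaques, was low everywhere, with its highest values, 1.89 and 1.58, at D6. Col26a1, a short collagen first found in testis and ovary, lies at chr5:136741759-136883209 and read 2.45 and 3.12 FPKM at D0, 14.5 and 4.99 at D2, 47.2 and 52.8 at D4, 0.182 and 0.184 at D6, 0.734 and 0.774 at D8, 0.227 and 0.208 at D10, 0.0146 and 0.0519 at D12, 2.16 and 2.12 in riPSC, and 0.96 and 0.701 in mESC. Its 2 libraries at D4 were over 3 times the next highest library, D2 replicate 1. The network-forming genes of type VIII, known from vessel walls and the cornea, were highest early, Col8a1 at 8.91 and 14.1 FPKM in D0 and Col8a2 at 5.06 and 6.13 in D4 and 4.91 and 5.54 in D0.

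At D2 against D0, type VI and Col18a1 rose while type I fell. Of the 30 tested genes 6 rose and 9 fell; over all tested genes 19.5% rose and 4.63% fell. All 3 abundant type VI genes rose, and none of the 11 fibrillar genes did: 5 of those fell. Col18a1 averaged 152 ± 85.05 FPKM at D2 and 9.31 ± 3.01 at D0 (SD, 2 libraries each), a log2 fold change of 3.81 ± 0.29, limma adjusted p = 8.31e-07. Col6a1 averaged 259 ± 167 at D2 and 47.3 ± 12.3 at D0, a log2 fold change of 2.28 ± 0.34, limma adjusted p = 0.000162. The other 4 that rose were Col6a3 (1.77 ± 0.31), Col6a2 (1.48 ± 0.30), Col13a1 (1.47 ± 0.23) and Col26a1 (1.36 ± 0.30).

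Both type I chains, Col12a1, type VIII and the cartilage chains Col2a1, Col9a2 and Col11a1 were among the genes that fell. Col1a1 averaged 83.4 ± 20.9 FPKM at D2 and 402 ± 141 at D0, a log2 fold change of -2.23 ± 0.22, limma adjusted p = 6.73e-06. Col12a1 averaged 3.53 ± 0.643 at D2 and 30.9 ± 1.61 at D0, a log2 fold change of -2.82 ± 0.16, limma adjusted p = 5.17e-08. Col8a1 (-3.02 ± 0.30), Col2a1 (-2.88 ± 0.21), Col8a2 (-1.80 ± 0.16), Col9a2 (-1.65 ± 0.15), Col5a1 (-1.43 ± 0.17) and Col11a1 (-1.33 ± 0.14) fell as well, and Col1a2 was the last of the 9.

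These D2 calls rest on the spread of the later groups, and the D2 libraries may not be independent. With the D0 and D2 libraries fitted alone, none of the 30 genes was called in either direction by limma, with 3 higher and 12 lower at an unadjusted p under 0.05. Without D2 replicate 1 the count of genes that rose was 3. The log2 fold changes of Col6a2, Col13a1 and Col26a1 in that fit were 0.87, 0.99 and 0.67, under the 2-fold limit. With the trend over transcript length removed from each library, 4 rose and 14 fell. Col6a2 (0.82) and Col26a1 (0.70) were then not called. The tested collagens had a median exonic length of 7727 bases, against 4255 for all tested coding genes. Markers of other cell types moved too: fibroblast markers summed to 1174 and 709 FPKM at D2 and 251 and 357 at D0, striated muscle markers summed to 22.6 and 32.7 FPKM at D2 and 241 and 203 at D0, and myeloid markers to 14.8 and 15.6 at D2 and 99.1 and 109.9 at D0. Their part in the collagen values was not tested.

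At D2 the genes that modify, fold, cleave and link collagen fell more often than all genes and rose about as often. Of 45 such genes and collagen receptors 40 were tested, and 9 rose and 11 fell, against 19.5% and 4.63% over all genes. Without D2 replicate 1 the count of those that rose was 5. Lox and Loxl1, which cross-link collagen and elastin, fell: Lox averaged 3.82 ± 2.38 FPKM at D2 and 44.3 ± 16.5 at D0, a log2 fold change of -3.28 ± 0.29, limma adjusted p = 2.93e-06, and Loxl1 changed by -2.34 ± 0.30. Fkbp10 (-1.61 ± 0.13), a collagen-folding chaperone, and the prolyl hydroxylase subunit P4ha2 (-1.63 ± 0.10) fell. Adamts14, which trims the amino end of procollagen, rose (3.14 ± 0.48), as did Plod2 (1.87 ± 0.33), which hydroxylates lysines of the chain ends, and the export genes Mia3 (1.58 ± 0.30) and Sec23a (1.31 ± 0.26). With the D0 and D2 libraries alone limma called none of the 40, with 3 higher and 9 lower at an unadjusted p under 0.05.

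At D4 against D2, fibrillar, transmembrane and other collagens rose. Limma called 13 of the 30 higher and none lower, against 5.66% higher and 4.48% lower over all genes; at an unadjusted p under 0.05 limma gave 21 higher and 1 lower. The 13 held 5 of 11 fibrillar genes, both Col13a1 and Col23a1 of the 3 tested transmembrane genes, and Col26a1. Col26a1 averaged 49.98 ± 3.92 FPKM at D4 and 9.75 ± 6.72 at D2, a log2 fold change of 2.40 ± 0.30, limma adjusted p = 8.72e-05. Col1a1 averaged 403 ± 86.3 at D4 and 83.4 ± 20.9 at D2, a log2 fold change of 2.26 ± 0.22, limma adjusted p = 1.22e-05. Col13a1 (2.21 ± 0.23), Col15a1 (1.98 ± 0.20), Col8a2 (1.88 ± 0.16), Col23a1 (1.82 ± 0.18), Col3a1 (1.72 ± 0.24) and Col14a1 (1.39 ± 0.16) rose too. This comparison shares the D2 libraries with the one before, and with them the doubt over their independence. With the D2 and D4 libraries fitted alone limma called none of the 30, with 17 higher and 1 lower at an unadjusted p under 0.05. Without D4 replicate 2 it called 8 higher; median-of-ratios scaling gave 10 higher and 1 lower.

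At D6 against D4 Col26a1 and the transmembrane Col13a1 and Col23a1 fell, and Col12a1 and chains of types V and VI rose. The counts were 5 higher and 5 lower of 30, against 11.6% and 6.86% over all genes. Col26a1 fell furthest, averaging 0.183 ± 0.00113 FPKM at D6 and 49.98 ± 3.92 at D4, a log2 fold change of -5.43 ± 0.30, limma adjusted p = 7.02e-08. Col8a2 (-2.32 ± 0.16), Col13a1 (-1.50 ± 0.23), Col23a1 (-1.38 ± 0.18) and Col15a1 (-1.03 ± 0.20) fell as well. Col8a2 had reached the tested level of 1 FPKM only in D0, D2 replicate 1 and D4, so its fall is partly set by that filter. Col12a1 averaged 36.2 ± 3.47 at D6 and 5.48 ± 1.52 at D4, a log2 fold change of 2.54 ± 0.16, limma adjusted p = 1.46e-07. Col5a3 (1.94 ± 0.12), Col6a3 (1.59 ± 0.31), Col8a1 (1.39 ± 0.30) and Col5a1 (1.17 ± 0.17) rose. Without the length trend the counts were 4 higher and 6 lower.

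Some cross-linking enzymes rose at the same step, though the whole list rose about as often as all genes. Of the 40 processing and receptor genes 5 rose and none fell by limma, against 11.6% and 6.86% over all genes, with 14 higher and 7 lower at an unadjusted p under 0.05. Loxl1 averaged 32.2 ± 0.249 FPKM at D6 and 7.4 ± 0.815 at D4, a log2 fold change of 1.99 ± 0.30, limma adjusted p = 0.000161, and Loxl3 changed by 1.11 ± 0.19. Loxl4, P3h2 and P4ha3, all below 10 FPKM, were the other 3.

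At D6 against D0, type VI, type XVIII and transmembrane collagens were higher and type VIII was lower. Of the 30 genes 12 rose and 5 fell, against 32.8% and 8.79% over all genes. Among the 12, transmembrane Col25a1 reached the tested level of 1 FPKM only in the 2 D6 libraries, so its rise is set by that filter. Col24a1 reached it only in D2 replicate 1 and the D4 and D6 libraries, so its rise is partly set by it. Among the 5, Col8a2 reached it only in D0, D2 replicate 1 and D4, and Col2a1 only in D0 and riPSC. Their falls are likewise partly set by the filter. Col18a1 averaged 410.3 ± 4.35 FPKM at D6 and 9.31 ± 3.01 at D0, a log2 fold change of 5.35 ± 0.29, limma adjusted p = 2.59e-08. Col6a1 averaged 474 ± 1.92 at D6 and 47.3 ± 12.3 at D0, a log2 fold change of 3.32 ± 0.34, limma adjusted p = 3.36e-06. Col6a3 (3.16 ± 0.31), Col6a2 (2.50 ± 0.30), Col24a1 (2.25 ± 0.21) and Col13a1 (2.19 ± 0.23) rose, and Col2a1 (-2.94 ± 0.21), Col8a2 (-2.24 ± 0.16), Col26a1 (-1.67 ± 0.30), Col8a1 (-1.63 ± 0.30) and Col9a2 (-1.15 ± 0.15) fell. Col1a1 was not called, at 514 and 523 FPKM at D6 against 303 and 502 at D0.

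At D6 the middle of the family lay close to that of all genes. The median log2 fold change of the 30 genes was 0.55, against 0.50 over all tested genes, and the sign of the collagen median turned with scaling: it was -0.01 after median-of-ratios scaling, where the median of all genes was 0.20, and -0.33 with the length trend removed. In that last setting 6 collagens rose and 7 fell, and transmembrane Col23a1, at 0.65, was not called. With a pseudocount of 0.1 type VIII Col8a1 was not called, at -1.89, limma adjusted p = 0.065. Fibroblast markers summed to 2020.4 and 1968 FPKM at D6 and 251 and 357 at D0, and 7 of the 9 rose. Striated muscle markers summed to 7.71 and 9.82 at D6 and 241 and 203 at D0, and myeloid markers to 8.85 and 8.76 at D6 and 99.1 and 109.9 at D0. The part of these cell types in the collagen values was not tested.

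At D8 against D6 types I, III and V, the Col6a1, Col6a2 and Col6a3 chains, Col18a1 and Col7a1 fell. Of the 30 genes 18 fell and none rose, against 11.3% lower and 15.1% higher over all genes; at an unadjusted p under 0.05 limma gave 23 lower and 2 higher. The 18 were 8 of 11 fibrillar genes, 3 of 4 tested type VI genes, 3 of 6 tested FACIT genes, and Col18a1, Col7a1, Col23a1 and Col8a1. Of these, Col24a1 had reached the tested level of 1 FPKM only in libraries up to D6, so its fall is partly set by that filter. The median log2 fold change of the 30 was -1.45, against 0.08 over all tested genes. Col7a1 fell furthest, averaging 1.82 ± 0.622 FPKM at D8 and 30.1 ± 1.57 at D6, a log2 fold change of -3.48 ± 0.15, limma adjusted p = 1.92e-09. Col6a2 averaged 46.4 ± 0.902 at D8 and 329 ± 2.63 at D6, a log2 fold change of -2.80 ± 0.30, limma adjusted p = 6.56e-06. Col1a1 averaged 95.4 ± 2.46 at D8 and 518 ± 6.31 at D6, a log2 fold change of -2.43 ± 0.22, limma adjusted p = 1.41e-06. Col6a1 (-2.74 ± 0.34), Col1a2 (-2.59 ± 0.20), Col16a1 (-2.48 ± 0.13), Col18a1 (-2.47 ± 0.29) and Col27a1 (-2.38 ± 0.20) fell by similar amounts.

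Type IV collagen went the other way at this step. Col4a1 was at 589.7 and 547 FPKM at D8 and 111 and 102 at D6, and Col4a2, its partner, at 352 and 332 at D8 and 80.2 and 73.6 at D6. Both rose by limma, while Col4a5, the other of the 3 type IV genes tested, fell, with 2.19 and 1.76 at D8 and 6.77 and 5.07 at D6. Fibroblast markers summed to 404 and 403 FPKM at D8 and 2020.4 and 1968 at D6, and 8 of the 9 fell. The exception was Pdgfra, at 108 and 102 at D8 and 88.9 and 82.2 at D6. Epithelial markers summed to 893 and 894 at D8 and 56.6 and 59.3 at D6, and extraembryonic endoderm markers to 354 and 352 at D8 and 48.1 and 46.3 at D6. The mitochondrial share of the summed FPKM was 50.2 and 52.4% at D8 and 44.2 and 35.4% at D6. The part of these cell types in the collagen values was not tested. A pseudocount of 0.1 gave 3 collagens higher at this step.

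The processing machinery split at D8. Of 40 genes 3 rose and 12 fell, against 15.1% and 11.3% over all genes. Loxl1 averaged 5.24 ± 0.358 FPKM at D8 and 32.2 ± 0.249 at D6, a log2 fold change of -2.41 ± 0.30, limma adjusted p = 2e-05. Mrc2 (-2.38 ± 0.14), an uptake receptor for collagen, Fkbp10 (-2.25 ± 0.13) and the prolyl hydroxylase P3h3 (-2.23 ± 0.17) fell too. Plod2 averaged 60.3 ± 1.75 at D8 and 9.77 ± 2.25 at D6, a log2 fold change of 2.52 ± 0.33, limma adjusted p = 3.94e-05, and P4ha2 (1.89 ± 0.10) and Mia2 (1.53 ± 0.23) rose with it. The chaperone Serpinh1, which binds procollagen of all types, including type IV, was not called and stood at 643 and 646 FPKM at D8 and 678 and 672 at D6.

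**Figure D4:**
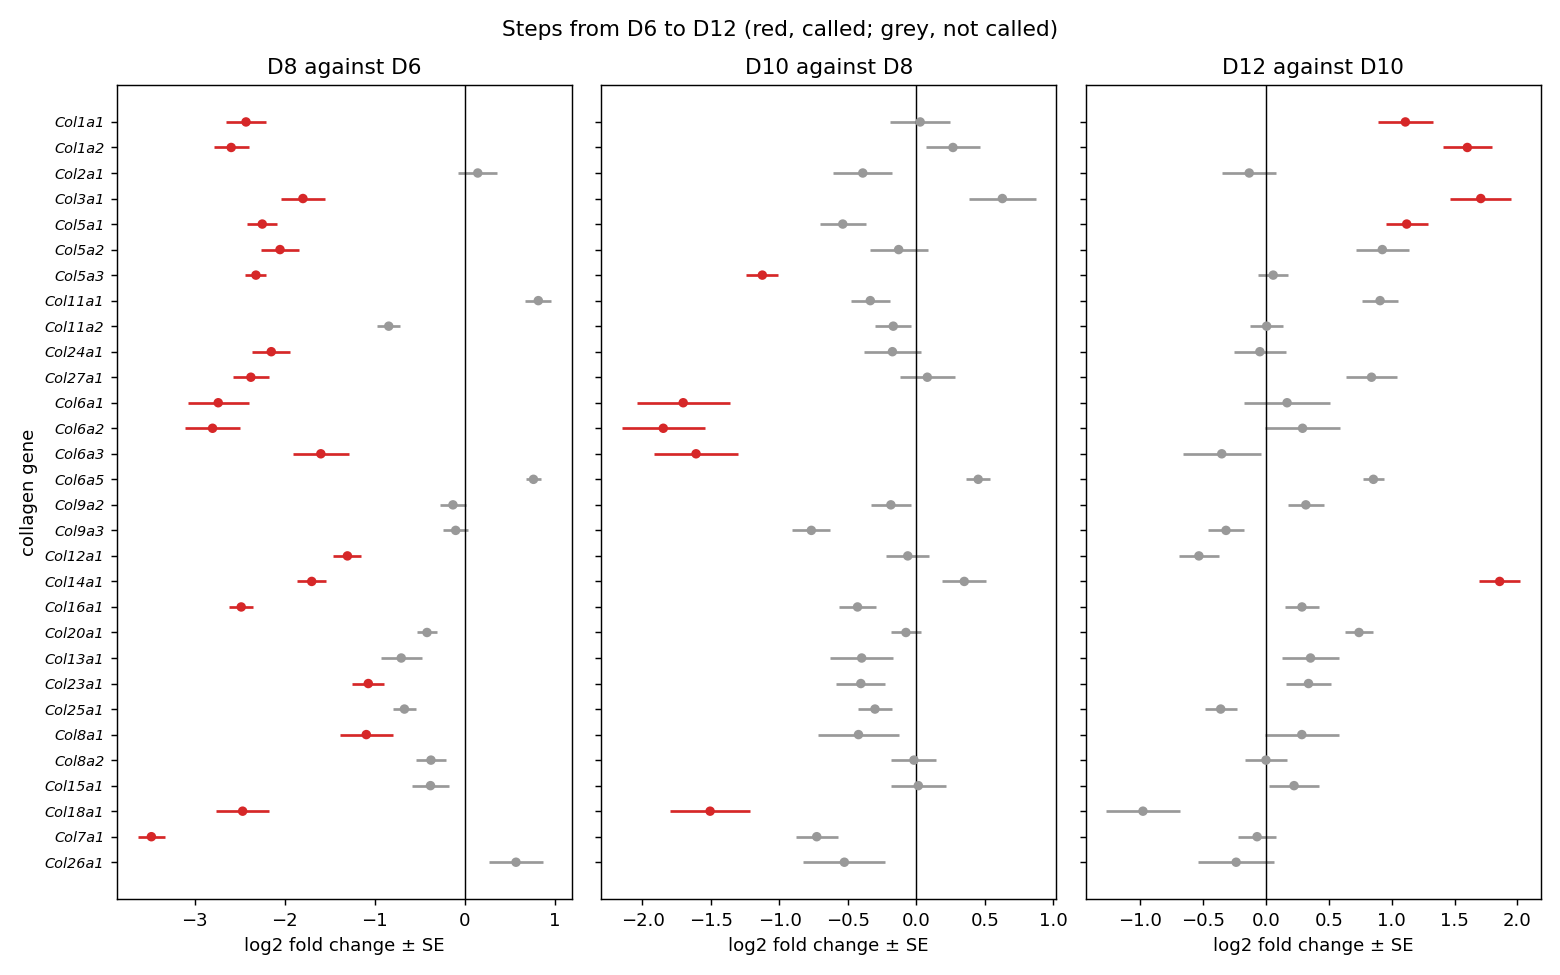
Log2 fold change ± SE of the 30 tested genes on the log2(FPKM + 1) scale at D8 against D6, D10 against D8 and D12 against D10; red marks called genes. Col6a1, Col6a2, Col6a3 and Col18a1 are red and below 0 in the first and second panels, while Col1a1, Col1a2, Col3a1 and Col5a1 are below 0 in the first and above 0 in the third.

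At D10 against D8 Col6a1, Col6a2, Col6a3 and Col18a1 fell again. Of the 30 genes 5 fell and none rose, against 2.43% and 0.426% over all genes; at an unadjusted p under 0.05 limma gave 12 lower and 2 higher. Col6a2 averaged 12.17 ± 1.1 FPKM at D10 and 46.4 ± 0.902 at D8, a log2 fold change of -1.85 ± 0.30, limma adjusted p = 0.00171. Col6a1 (-1.70 ± 0.34), Col6a3 (-1.61 ± 0.31), Col18a1 (-1.51 ± 0.29) and Col5a3 (-1.13 ± 0.12) also fell. Type I was not called, Col1a1 standing at 94.8 and 99.6 at D10 and 97.1 and 93.6 at D8. Without D8 replicate 1, or without D10 replicate 1, the count of genes that fell was 3; a pseudocount of 0.1 gave 8. Col6a5, the other type VI gene tested, was at 1.23 and 1.48 at D10 and 0.697 and 0.746 at D8, a log2 fold change of 0.45 ± 0.09, limma adjusted p = 0.00518, under the 2-fold limit. Fibroblast markers summed to 209 and 215 FPKM at D10 and 404 and 403 at D8, and 5 of the 9 fell; their part in the collagen values was not tested.

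At D12 against D10 Col1a1, Col1a2, Col3a1 and Col5a1 of the fibrillar genes rose, and no type VI gene passed the 2-fold limit. Over the family 5 of 30 rose and none fell, against 6.01% and 4.68% over all genes; at an unadjusted p under 0.05 limma gave 10 higher and 4 lower. Col3a1 averaged 252 ± 4.77 FPKM at D12 and 76.3 ± 1.89 at D10, a log2 fold change of 1.71 ± 0.24, limma adjusted p = 0.000162. Col1a2 averaged 149.9 ± 2.64 at D12 and 48.8 ± 1.7 at D10, a log2 fold change of 1.60 ± 0.20, limma adjusted p = 4.91e-05. Col14a1 (1.86 ± 0.16), Col5a1 (1.12 ± 0.17) and Col1a1 (1.11 ± 0.22) rose as well. Col6a1 was at 23.1 and 24.0 at D12 and 19.5 and 22.3 at D10 and was not called. Col6a5 was at 3.2 and 3.31 at D12 and 1.23 and 1.48 at D10, a log2 fold change of 0.85 ± 0.09, limma adjusted p = 1.01e-05, also under that limit. A pseudocount of 0.1, which moves low genes more, gave 9 higher and 3 lower, and removal of the length trend 8 higher. Whether type VI and fibrillar genes differ in this step was not tested. Fibroblast markers summed to 219 and 217 FPKM at D12 and 209 and 215 at D10: Postn rose, Thy1 fell and the other 7 were not called. This near-equal sum joins members that moved in opposite directions. Pdgfra was at 83.5 and 82.6 at D12 and 112 and 112 at D10, and Dcn at 77.1 and 76.7 at D12 and 43.4 and 46.2 at D10. Lum was also higher in both D12 libraries than in both of D10, and Twist1 and Prrx1 were lower. The part of these markers' cells in the collagen values was not tested.

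D12 cells had more collagen RNA than riPSC. At D12 16 of the 30 genes were higher and 4 lower, against 16.7% and 19.8% over all genes. Among the 16, Col6a5 had reached the tested level of 1 FPKM only in the D10 and D12 libraries. Among the 4, Col2a1 had reached it only in D0 and riPSC, and Col9a2 only in D0, riPSC and mESC. The calls of these genes are partly set by that filter. Col3a1 averaged 252 ± 4.77 FPKM at D12 and 7.37 ± 0.321 in riPSC, a log2 fold change of 4.92 ± 0.24, limma adjusted p = 2.55e-09. Col6a3 (3.01 ± 0.31), Col14a1 (2.70 ± 0.16), Col1a1 (2.55 ± 0.22), Col6a2 (2.51 ± 0.30), Col11a1 (2.49 ± 0.14), Col1a2 (2.42 ± 0.20) and Col6a1 (2.30 ± 0.34) were the next largest. Lower at D12 were Col9a2, with a log2 fold change of -3.37 ± 0.15, limma adjusted p = 7.72e-10, Col26a1 (-1.61 ± 0.30), Col18a1 (-1.55 ± 0.29) and Col2a1, listed at 0 in both D12 libraries. Pluripotency markers summed to 1409 and 1447 FPKM at D12 and 4787 and 5057 in riPSC, and fibroblast markers to 219 and 217 at D12 and 22.1 and 23.6 in riPSC. Extraembryonic endoderm markers summed to 403 and 425 at D12 and 3.04 and 3.95 in riPSC, and epithelial markers to 737 and 749.7 at D12 and 108 and 114 in riPSC. The part of these cell types in the collagen values was not tested.

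In riPSC against D0 most tested collagens were lower and 3 were higher. Of the 30 genes 18 fell and 3 rose, against 13% and 40.1% over all genes, and the median log2 fold change was -2.21, against 0.62 over all genes. Those that fell held 9 of 11 fibrillar genes and the 3 abundant type VI genes. Col6a2 averaged 1.84 ± 0.271 FPKM in riPSC and 58.4 ± 16.4 at D0, a log2 fold change of -4.36 ± 0.30, limma adjusted p = 4.47e-08. Col16a1 averaged 1.3 ± 0.0943 in riPSC and 34.5 ± 2.21 at D0, a log2 fold change of -3.95 ± 0.13, limma adjusted p = 6.33e-11. Col1a1 (-3.44 ± 0.22), Col6a3 (-3.41 ± 0.31), Col7a1 (-3.33 ± 0.15), Col3a1 (-3.33 ± 0.24), Col5a1 (-3.33 ± 0.17) and Col6a1 (-3.26 ± 0.34) followed. Col9a2 rose, averaging 14.4 ± 0.544 in riPSC and 2.32 ± 0.521 at D0, a log2 fold change of 2.22 ± 0.15, limma adjusted p = 2.85e-08.

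The other genes higher in riPSC depend on scaling. Col18a1 (1.95 ± 0.29) and Col13a1 (1.12 ± 0.23) rose as deposited; with the length trend removed their log2 fold changes were 0.86 and 0.32 and neither was called, so that 1 gene rose and 26 fell. Median-of-ratios scaling, under which the median of all genes was 0.19, gave 2 higher and 21 lower and left Col13a1 uncalled at 0.94. Col1a1 still read 33.8 and 36.5 FPKM in riPSC. Fibroblast markers summed to 22.1 and 23.6 there and 27.7 and 30.0 in mESC, with 6 and 7 of the 9 at 1 FPKM or more in both libraries; the part of feeder cells in these values was not tested. Striated muscle markers summed to 6.61 and 6.69 in riPSC and 241 and 203 at D0, and myeloid markers to 13.7 and 14.3 in riPSC and 99.1 and 109.9 at D0; their part was not tested either.

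Of the processing and receptor genes 21 of 40 fell in riPSC against D0 and 5 rose, against 13% and 40.1% over all genes; median-of-ratios scaling, and likewise removal of the length trend, gave 2 higher. Fkbp10 averaged 4.67 ± 0.334 FPKM in riPSC and 244 ± 6.7 at D0, a log2 fold change of -5.43 ± 0.13, limma adjusted p = 4.3e-12. Loxl1 (-4.62 ± 0.30), the prolyl hydroxylase complex member P3h4 (-3.98 ± 0.14) and Mrc2 (-3.94 ± 0.14) fell as well. Mia2 (2.66 ± 0.23), Plod2 (2.27 ± 0.33), Sec23a (1.61 ± 0.26) and the collagen galactosyltransferase Colgalt1 (1.29 ± 0.12) rose.

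Between the 2 kinds of pluripotent cells 3 collagens were called. In riPSC against mESC 1 gene of 30 was higher and 2 were lower, against 1.84% and 1.2% over all genes. Col9a2 averaged 14.4 ± 0.544 FPKM in riPSC and 1.5 ± 0.191 in mESC, a log2 fold change of 2.62 ± 0.15, limma adjusted p = 1.77e-07, and neither riPSC library overlapped the mESC libraries. Col6a2 averaged 1.84 ± 0.271 in riPSC and 6.16 ± 0.581 in mESC, a log2 fold change of -1.34 ± 0.30, limma adjusted p = 0.0113. Col5a1 averaged 5.0 ± 0.447 in riPSC and 11.8 ± 1.2 in mESC, a log2 fold change of -1.09 ± 0.17, limma adjusted p = 0.000905. The 2 lower calls are not firm: Col6a2 lost its call when any 1 of the 4 libraries was left out, and Col5a1 when mESC replicate 2 was. Without the length trend 1 gene was higher and 5 were lower, and a pseudocount of 0.1 gave 6 lower.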

How the data were processed

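Per the submitters' processing notes, the authors used fastp 0.20.1, HISAT2 2.2.1 and StringTie 2.0 with the mouse build mm10, and deposited 1 file per library with 1 value per Ensembl gene. The unit is not named in the sources used here; the deposited values were read as FPKM, since StringTie gives it and their sums differ between libraries, which TPM sums do not. The annotation release, how the tools were set and whether strand was used in counting are not given in the sources used here; at most 6.07% of the exonic bases of any collagen gene overlapped another gene. Groups and replicate numbers came from the sample titles. Symbols, coordinates and exonic lengths came from GENCODE's annotation of GRCm38, which held 55141 of the 55401 identifiers.

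Here limma 3.58.1 in R 4.3.3 was fitted to log2(FPKM + 1) of 16439 genes that reached 1 FPKM in 2 or more libraries, with 1 mean per group over all 18 libraries and eBayes, two-sided. P-values were adjusted by the Benjamini-Hochberg method over all tested genes in each of 10 comparisons. No count model was used, since the files hold no counts. Depth is unknown: the steps of low values in 10014 single-exon genes did not settle it, so no counting interval is given. Every collagen gene is named at least once. Libraries are given in full for the 18 genes reaching 10 FPKM in both libraries of a group, and fold changes for up to 8 called genes per direction. The fold changes of Col6a5 at D10 and D12 were added after its values were seen. Of the processing and receptor genes, up to 4 called per direction with a group mean of at least 10 are named. The members and lists were chosen with earlier results of these data known. The procedure was tested on simulated data. Alternatives were a pseudocount of 0.1, no filter and a filter of 5 FPKM, median-of-ratios scaling, removal of the length trend by lowess, fits of only the libraries compared, a fit without D0, D2 and D4, the replicate number as a block and each library left out. A crossed block was added after the data were seen. Figures were drawn with matplotlib 3.10.9.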

Additional observations from a re-analysis of the deposited data

How the results depend on the processing

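Of 1040 values of 89 named tests under all alternatives, 983 kept their call, 57 lost it and none changed sign; 22 of the losses came from fits of only the libraries compared, 17 from leaving out 1 library and 9 from the crossed block. In those small fits no collagen gene was called at D2 against D0 (0 higher, 0 lower) or higher at D4 against D2 (0), and no processing or receptor gene at D2 against D0 (0 and 0), where fewer libraries estimate the spread. The calls between groups from D6 on rest on closely matched replicates. Those that use D0, D2 or D4 are limited by wider gaps between replicates, and the D2 libraries may not be independent. The unknown depth limits genes near 1 FPKM. A pseudocount of 0.1 gave 1 collagen lower at D4 against D2, 3 higher at D8 against D6, 8 lower at D10 against D8, 9 higher and 3 lower at D12 against D10, 6 lower in riPSC against mESC, and 1 processing gene lower at D6 against D4; the cause was not tested. Median-of-ratios scaling gave 1 collagen lower at D4 against D2 and 2 processing genes higher in riPSC against D0. Without the length trend 14 collagens were lower at D2 against D0, 8 higher at D12 against D10, 6 higher at D6 against D0, 1 higher in riPSC against D0 and 5 lower in riPSC against mESC, with 2 processing genes higher in riPSC against D0.

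Leaving out 1 library at a time, collagens higher and lower numbered 3 to 8 and 8 to 10 at D2 against D0 (3 without D2 replicate 1), 8 to 16 and 0 at D4 against D2 (8 without D4 replicate 2), 4 to 6 and 4 to 6 at D6 against D4, 0 and 17 to 18 at D8 against D6, 0 and 3 to 5 at D10 against D8 (3 without D8 replicate 1 or D10 replicate 1), and 5 and 0 at D12 against D10. They numbered 10 to 12 and 4 to 5 at D6 against D0, 2 to 3 and 17 to 19 in riPSC against D0, 15 to 16 and 4 at D12 against riPSC, and 1 and 0 to 2 in riPSC against mESC (1 without riPSC replicate 1, 0 without mESC replicate 2). Processing and receptor genes numbered 5 to 11 and 8 to 13 at D2 against D0 (5 higher without D2 replicate 1), 4 to 6 and 0 at D6 against D4, 3 and 11 at D8 against D6, and 4 to 6 and 17 to 25 in riPSC against D0. Replicate numbers were not shown to pair the libraries: the correlation of same-numbered deviations ran from -0.23 at D4 against D2 to 0.15 in riPSC against mESC. The replicate block over all 18 libraries changed none of the counts, with 18 lower at D8 against D6. A crossed replicate block, added after the data were seen and fitted to the compared libraries alone, gave 0 higher at D4 against D2, 5 higher and 5 lower at D6 against D4, and 10 higher and 4 lower at D6 against D0.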

Other observations

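Of the 40 processing and receptor genes, 4 rose and 1 fell at D12 against D10, against 6.01% and 4.68% over all genes. The prolyl hydroxylase subunit P4ha2 was at 376 and 391 FPKM at D12, 152 and 154 at D10, 24.1 and 27.7 at D0 and 10.23 and 9.94 in riPSC, and it rose at D12 against D10 (log2 fold change of 1.32 ± 0.10, limma adjusted p = 7.98e-07). Serpinh1, the procollagen chaperone, was at 913 and 895 at D12 and 571 and 618 at D10 and was not called at that step. In riPSC against mESC Serpinh1 was the 1 gene of the 40 called, at 107 and 114 in riPSC and 47.1 and 50.8 in mESC (log2 fold change of 1.16 ± 0.15, limma adjusted p = 0.000272). Lox, the cross-linking enzyme, was at 8.76 and 8.02 at D12 and 2.0 and 2.22 at D10 (log2 fold change of 1.59 ± 0.29, limma adjusted p = 0.00109), far below its 32.7 and 56.0 at D0.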
